A study of Mus musculus with 23 samples.

Results

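The transcripts described here are the mouse genes that still carry a RIKEN clone name starting with 1700 and ending with Rik, followed in testes of increasing age and in cultured testis explants. Of the 27466 genes of the raw count table, 328 carry such a symbol, and 216 of these had 50 or more counts in 3 or more of the 21 libraries used. These 216 genes, selected on measured counts, are called the 1700 clone genes below. The RefSeq annotation lists 128 of them as lncRNA, 79 as protein coding and 9 as other biotypes, of which 7 are transcribed pseudogenes. In the whole table the same names cover 234 lncRNA, 84 protein-coding and 10 other genes, so the count limit removed mainly lncRNA. Of the 112 rows left out, 5 had no count in any library used.

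RIKEN clone names were given to full-length mouse cDNAs by the library they came from, and the 1700 prefix stands for cDNA of adult male testis. A gene keeps such a name until a function or a relation to another gene is settled, so most of these genes have no established role, and only a few carry a second name. Long non-coding RNAs are transcripts with no long open reading frame, many of them spliced and polyadenylated. The testis is known for expressing more of them than other organs. Their transcription rises when germ cells enter the pachytene stage of meiosis and continues in round spermatids. In elongating spermatids histones are replaced by transition proteins and then by protamines, and transcription stops.

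The study compared testes of CD-1 mice, an outbred strain, with organotypic cultures of such testes. Explants of testes taken 6.5 days postpartum (dpp) were cultured for 4, 16 or 30 days (D4, D16 and D30), and fresh tissue came from mice of 6.5 dpp and of the ages that match the cultures, which are 10.5 dpp for D4, 22.5 dpp for D16 and 36.5 dpp for D30. Some 6.5 dpp testes were controlled slow frozen (CSF) before RNA extraction or before culture, the others were fresh. The cultures gave 3 libraries of D4, 2 of D16 and, from D30, 3 fresh and 1 CSF. The testes gave 2 libraries of 36.5 dpp, 3 each of the ages 22.5 and 10.5 dpp and, from 6.5 dpp, 3 CSF and 1 fresh library. Frozen and fresh libraries of a stage were treated as one group. Every explant was cultured in a serum replacement medium with retinol, each culture library pooled several explants, and the necrotic centre of the explants had been removed, so culture libraries hold the outer tissue only. Whole tissue was sequenced, and fewer cells of a type cannot be told apart from less RNA per cell.

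Totals of the libraries used lay between 28351546 and 69029328 counts. The libraries labelled 6.5 dpp fresh replicates 2 and 3 held identical values and were counted as 1 sample. The library labelled 6.5 dpp fresh replicate 1 stood apart, with a summed level of the 1700 clone genes of 4716 CPM (its counts scaled to a common library total) against 630 to 908 in the other libraries of that age, and was left out. Summed marker genes of cell types also set this library apart from the others of its age. Spermatocyte markers stood at 1754 against 150 to 242 CPM, and spermatogonial markers at 454 against 1206 to 1337 CPM. Leydig cell markers stood at 73.3 against 352 to 552 CPM, and peritubular ones at 129 against 768 to 887 CPM. The library entered only as an alternative, and beside counts below that it changed by more than 1.5 times the value with it is given. Nothing in the labels says whether replicates came from separate animals, so tests measure the spread between these libraries.

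The summed level of the 1700 clone genes was low in testes of 6.5 and 10.5 dpp and highest at 36.5 dpp. It was 658 CPM in the fresh library of 6.5 dpp and 630, 649 and 908 CPM in the 3 CSF libraries. At 10.5 dpp the sums were 689, 717 and 712 CPM. At 22.5 dpp they were 9051, 5402 and 9272 CPM, and at 36.5 dpp 24556 and 18777 CPM, so no library of these 2 ages overlapped with the younger ones. In culture the sums were 751, 771 and 799 CPM at D4, 6181 and 2268 CPM at D16, and 6188, 7281 and 2699 CPM in the fresh and 5795 CPM in the CSF library at D30. All D30 sums lay below both 36.5 dpp sums, and the sums at D16 and at 22.5 dpp overlapped. On a scale with TMM factors, which correct for a change in the make-up of the RNA, the mean sum at 36.5 dpp became 33141 ± 5677 CPM (SD, n = 2) in place of 21666 ± 4086, and the mean sum at D30 was 5459 ± 2092 (SD, n = 4) in place of 5491 ± 1964.

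**Figure D1:**
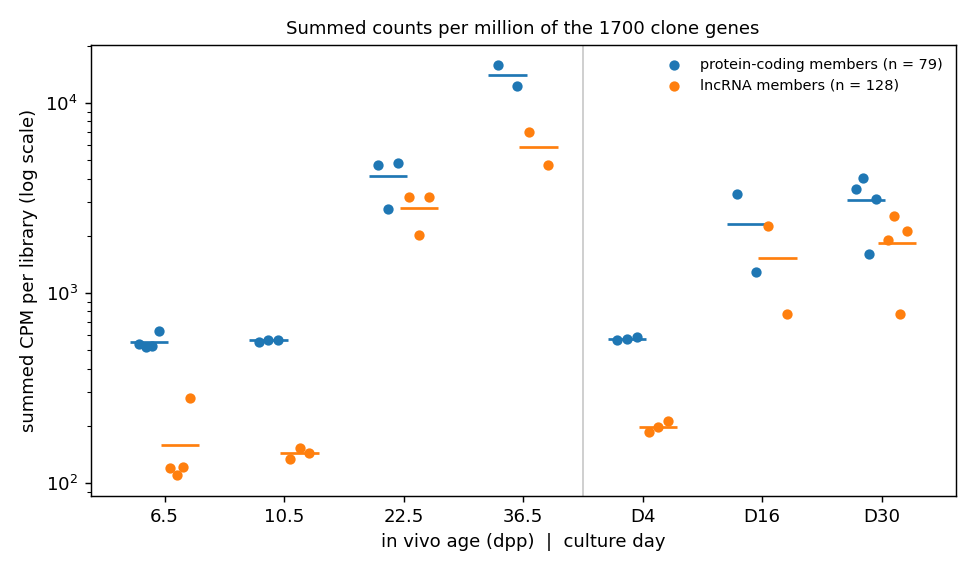
Summed CPM of the 79 protein-coding and the 128 lncRNA members (log axis) in each library, by age in vivo and by day of culture. Points are libraries and bars are stage means. Both classes were higher in every 22.5 and 36.5 dpp library than in any 6.5 or 10.5 dpp library, and the 4 D30 libraries stayed below the 2 libraries of 36.5 dpp.

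A few genes made up most of the early signal. The 10 highest 1700 clone genes held 80.7% of the summed level at 6.5 dpp and 79.4% at 10.5 dpp, but 51.3% at 22.5 dpp and 30.0% at 36.5 dpp. At 10.5 dpp, 83 of the 216 genes had 3 or fewer counts in every library and 44 reached 1 CPM in every library. At 36.5 dpp none was left at that floor and 213 reached 1 CPM in both libraries. At D30 no gene was at the floor, and 155 reached 1 CPM in all 4 libraries. The in vivo stage with the highest mean was 36.5 dpp for 191 genes, 22.5 dpp for 18, 10.5 dpp for 3 and 6.5 dpp for 4.

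The median lncRNA member lay below the median protein-coding one in every stage, and the ratio of the summed levels of the 2 classes changed with age. The median stage mean of the lncRNA members was 0.0315 CPM at 6.5 dpp, 0.0357 at 10.5 dpp, 3.26 at 22.5 dpp and 18.8 at 36.5 dpp. For the protein-coding members it was 0.384, 0.332, 15.5 and 112 CPM at the same ages. In culture the lncRNA medians were 0.0225 CPM at D4, 2.03 at D16 and 3.14 at D30, against 0.417, 8.52 and 16.5 CPM for the coding genes. Per kb of exon, a scale on which genes can be compared and which is available for 214 members, the 36.5 dpp medians were 18.0 CPM per kb for lncRNA and 86.7 for coding members. The summed lncRNA level divided by the summed coding level was 0.212 to 0.272 in the 6.5 and 10.5 dpp libraries other than 6.5 dpp CSF replicate 3, which stood at 0.444. The same ratio was 0.657 to 0.735 at 22.5 dpp and 0.383 to 0.444 at 36.5 dpp, so the 3 libraries of 22.5 dpp lay above both older ones. It was 0.329 to 0.361 at D4, 0.603 and 0.683 at D16, and 0.483 to 0.676 at D30, where all 4 libraries lay above the range of 36.5 dpp. The 10 highest genes of each class held 92.6% of the coding and 82.6% of the lncRNA sum at 6.5 dpp, so the early ratios rest on few genes.

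**Figure D2:**
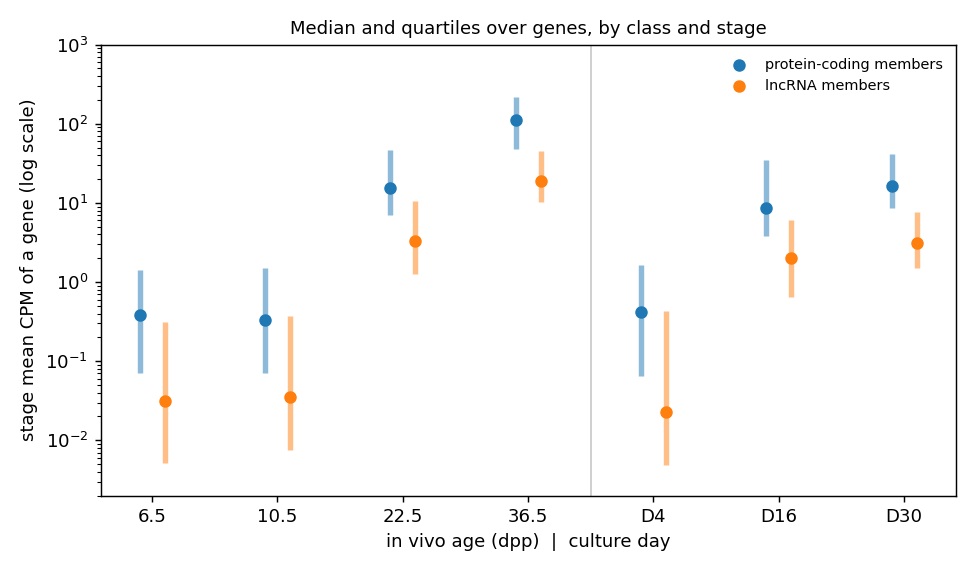
Median (points) and quartiles (bars) over genes of the stage mean CPM, on a log axis, for protein-coding and lncRNA members. The lncRNA median rises from 0.0357 CPM at 10.5 dpp to 18.8 CPM at 36.5 dpp, and reaches 3.14 CPM at D30.

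The highest lncRNA per kb of exon in any stage was 1700008K24Rik, at chr17:49112264-49113533 on the minus strand (RefSeq, GRCm38.p6). Its level was 0.146 to 0.251 CPM in the 4 libraries of 6.5 dpp, 0.337, 0.278 and 0.436 CPM at 10.5 dpp, 550, 323 and 574 CPM at 22.5 dpp, and 909 and 531 CPM at 36.5 dpp. In culture it was 0.58, 0.336 and 0.71 CPM at D4, 396 and 114 CPM at D16, and 289, 410, 91.3 and (CSF) 277 CPM at D30. Per kb it reached 757.5 CPM, followed among lncRNA by 1700011M02Rik with 326.3 and 1700027A15Rik with 325.0. Among the protein-coding members 1700003F12Rik (645.7 CPM per kb), 1700029F12Rik (544.9) and 1700020D05Rik (521.8) led. 1700029F12Rik (chr13:97021864-97035254) had 395, 190 and 426 CPM at 22.5 dpp, 619 and 623 CPM at 36.5 dpp, and 237, 236, 77.4 and (CSF) 154 CPM at D30, where all 4 libraries lay below both of 36.5 dpp. 1700020D05Rik, which the annotation also lists as mage-g2, differed between the 36.5 dpp libraries, at 838 and 228 CPM.

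Promoters are shown for 5 genes that the results turn on and that differ in when they changed. RefSeq windows from 250 bases before to 50 bases after the start of transcription exist for 171 of the 216 genes, and the first listed window was used for the 10 genes with more than 1. Capitals mark matches, on either strand, to TAACNG (the core bound by MYB factors, whose member MYBL1 acts in pachytene spermatocytes), GTTGCCA (a half-site of RFX factors) and TGACG (the short core of a cAMP response element). Matches of these motifs may share end bases, and the short core lies within the full element TGACGTCA.
1700008K24Rik (chr17:49113484-49113783, minus strand): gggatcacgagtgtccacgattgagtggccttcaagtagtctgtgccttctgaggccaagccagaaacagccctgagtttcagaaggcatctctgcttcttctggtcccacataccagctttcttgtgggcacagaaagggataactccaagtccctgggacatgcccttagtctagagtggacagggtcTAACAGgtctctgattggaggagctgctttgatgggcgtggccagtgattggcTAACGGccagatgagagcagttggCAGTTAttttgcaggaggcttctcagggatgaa
1700029F12Rik (chr13:97034313-97034612, minus strand): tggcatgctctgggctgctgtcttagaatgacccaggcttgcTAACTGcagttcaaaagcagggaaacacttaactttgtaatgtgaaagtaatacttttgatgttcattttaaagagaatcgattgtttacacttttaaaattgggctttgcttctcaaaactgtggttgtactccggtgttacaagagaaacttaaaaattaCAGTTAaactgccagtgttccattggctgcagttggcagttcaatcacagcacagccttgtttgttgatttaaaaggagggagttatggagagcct
1700056E22Rik (chr1:184033949-184034248, minus strand): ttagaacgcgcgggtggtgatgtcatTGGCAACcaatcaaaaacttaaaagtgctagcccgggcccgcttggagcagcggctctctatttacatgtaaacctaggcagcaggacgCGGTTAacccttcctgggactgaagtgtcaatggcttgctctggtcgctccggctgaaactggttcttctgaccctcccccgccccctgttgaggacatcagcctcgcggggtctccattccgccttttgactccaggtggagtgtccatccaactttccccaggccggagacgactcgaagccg
1700027A15Rik (chr1:73015786-73016085, plus strand): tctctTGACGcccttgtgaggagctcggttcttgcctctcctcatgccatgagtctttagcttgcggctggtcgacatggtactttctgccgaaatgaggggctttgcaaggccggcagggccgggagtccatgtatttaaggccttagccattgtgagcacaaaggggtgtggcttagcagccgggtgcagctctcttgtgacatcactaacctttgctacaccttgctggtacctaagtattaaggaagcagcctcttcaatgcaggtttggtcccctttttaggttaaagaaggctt
1700025G04Rik (chr1:152090271-152090570, minus strand): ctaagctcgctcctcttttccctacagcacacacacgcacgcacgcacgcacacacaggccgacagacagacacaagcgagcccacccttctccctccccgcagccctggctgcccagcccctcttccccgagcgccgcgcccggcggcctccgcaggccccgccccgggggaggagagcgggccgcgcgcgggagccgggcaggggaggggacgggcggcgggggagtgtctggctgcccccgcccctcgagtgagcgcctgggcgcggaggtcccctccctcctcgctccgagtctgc
The first pair rose by 22.5 dpp, 1700029F12Rik again by 36.5 dpp, and they hold 3 and 2 TAACNG matches. 1700056E22Rik and 1700027A15Rik were also called higher at both ages but rose most by 36.5 dpp. Of these, 1700056E22Rik holds a TAACNG and a GTTGCCA match, and 1700027A15Rik a TGACG match. That TGACG match starts 245 bases before the start, past the opposite-strand start of Tnp1 at 137 bases. It thus lies on the transcribed side of Tnp1 and not between the starts of the pair. 1700025G04Rik, shown for contrast because it fell at 22.5 dpp, has none of the 3 motifs, 33 CG dinucleotides and 75.3% G+C.

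TAACNG was found in 29.8% of the 171 windows, against 20.4% of the 15120 windows of genes tested and 27.7% of those of other lncRNA. Among the members that rose by 22.5 dpp only it was in 39.1% of 46 windows, among those that rose at both steps in 28.2% of 103, and among those that rose by 36.5 dpp only in 3 of 15. GTTGCCA was found in 12.3% of the members' windows, in 4.62% of those of all genes tested and in 7.01% of those of other lncRNA. TGACG was in 25.1% and the full TGACGTCA in 2.34%, beside 27.2% and 2.76% of all windows of genes tested. The members' windows held a median of 6 CG dinucleotides, as did those of other lncRNA, and those of all genes tested 17. These shares describe letters in a window and show no binding.

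Of the 171 genes with a window, 33 (19.3%) had a start of another gene on the opposite strand within 1000 bases upstream, against 15.5% of genes tested and 18.9% of other lncRNA, and for 24 the partner was in the count table. The lncRNA 1700027A15Rik starts 137 bases from Tnp1, which encodes a transition protein of elongating spermatids. The stage means of 1700027A15Rik were 0.0417, 0.0631, 1.16 and 454 CPM in vivo, and those of Tnp1 were 1.32, 0.915, 6.68 and 3881 CPM. At D16 and D30 the lncRNA had 0.282 and 24.3 CPM and Tnp1 had 3.12 and 202 CPM, so both were lower than at the matched ages in vivo. The lncRNA 1700097N02Rik starts 31 bases from Dnah8, a dynein heavy chain of the sperm flagellum, and had stage means of 0.994 CPM at 10.5 dpp, 45.9 at 22.5 dpp and 34.1 at 36.5 dpp beside 38.6, 3271 and 1252 CPM for Dnah8. The lncRNA 1700051A21Rik starts 240 bases from Slc13a5, a citrate transporter, with 82.2 and 131 CPM at 22.5 and 36.5 dpp beside 80.0 and 62.5 CPM. These last pairs were chosen after their values were seen. Of 23 tested partners that are no members, 11 were higher and 1 lower at 22.5 dpp than at 10.5 dpp, and 4 were higher and 1 lower at 36.5 than at 22.5 dpp (median log2 differences 0.98 and 0.16). Of all genes tested 27.9% were higher and 18.4% lower at the first step, and 20.5% and 17.2% at the second. Spans of other genes overlapped 88 of the 216 members (40.7%) and 46.3% of genes tested, and since the strand setting of the counting is not given in the sources used here, reads of overlapping genes may be split or shared.

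Between 6.5 and 10.5 dpp no 1700 clone gene passed the test. A gene was called when it differed at least 2-fold with an adjusted p under 0.05 in edgeR's quasi-likelihood test over 19255 genes, and here 0 of 216 were called in either direction, against a background of 0.545% higher and 0.358% lower among all genes tested. There were 4 higher and 2 lower members at an unadjusted p under 0.05, and DESeq2 and the fit with library size alone each called 1 higher. Of the members 19 were higher and 2 lower in every 10.5 dpp library than in any of 6.5 dpp, beside 12.2% and 6.74% of genes tested. The median log2 difference of the members was 0.04. Of the 6.5 dpp libraries used 3 were CSF and 1 fresh, and all 3 of 10.5 dpp were fresh. Age and freezing cannot be fully told apart in this comparison. Log2 differences here and below are scaled with TMM factors, while CPM values are on library totals, so the ratio of printed CPM values can differ from the fold.

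From 10.5 to 22.5 dpp most of the 1700 clone genes rose. Of the 216, 188 (87.0%) were called higher and 2 lower, where 27.9% of all genes tested were higher and 18.4% lower. The rise covered 111 of 128 lncRNA, 68 of 79 protein-coding and 9 of 9 other members. The median log2 difference was 5.76 for the members and 0.06 for all genes tested, and it was 4.74 when the genes at the floor in one of the groups were set at their bound and those at the floor in both were left out. Restricting the members to the 213 that pass the count limit on libraries of other stages left 185 higher and 2 lower, and of the 88 rows with a 1700 name that were tested without passing the limit 50 were higher and 1 lower. Since the members were selected on counts that older testes supply, these numbers describe them and are no independent support for their rise. Without any one library of these groups, 184 to 193 members were called.

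The leading genes of this step went from traces to some of the more abundant RNAs of the testis. 1700123L14Rik, a transcribed pseudogene at chr6:96164503-96166205 that the annotation relates to Nup50, a nuclear pore gene, had 0.382, 0.306 and 0.255 CPM at 10.5 dpp and 713, 388 and 758 CPM at 22.5 dpp. Its log2 difference was 11.26 ± 0.60 (SE, adjusted p = 3.41e-10). Reads of such a copy may be shared with its parent gene, so its level is uncertain. 1700001J11Rik, a transcribed pseudogene at chr9:40050558-40053025, had 0.112, 0.25 and 0.182 CPM and then 430, 213 and 431 CPM (log2 difference 11.27 ± 0.61, adjusted p = 3.41e-10). For both genes the ages did not overlap, which the choice of named genes required, and the library labelled 22.5 dpp replicate 2 was the lowest of its age.

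Both members that fell are protein coding and were present before meiosis. 1700025G04Rik (chr1:151884524-152091121) had 86.4, 82.0 and 75.3 CPM at 10.5 dpp and 22.4, 37.7 and 21.5 CPM at 22.5 dpp, a log2 difference of -1.30 ± 0.21 (adjusted p = 3.43e-05). 1700013H16Rik, also named Slx2 and Xlr6 and part of a multigene family on the X chromosome (chrX:53742901-53757970), had 35.8, 46.4 and 34.6 CPM and then 17.2, 16 and 13.4 CPM. Its log2 difference of -1.03 ± 0.43 had an adjusted p of 0.0451, and it was not called by DESeq2 (adjusted p = 0.0546) or without any one library of the groups (adjusted p 0.0583 to 0.126), while over all alternatives its adjusted p ran from 0.000755, with only these groups fitted, to 0.126. Reads of family members may be split between near-identical copies.

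From 22.5 to 36.5 dpp, 148 members (68.5%) rose and 0 fell, beside 20.5% higher and 17.2% lower of all genes tested. This comparison shares the 22.5 dpp libraries with the one before. The rise covered 62 of 79 protein-coding, 82 of 128 lncRNA and 4 of 9 other members, with median log2 differences of 2.93, 2.03 and 1.10. DESeq2 called 154 higher and 0 lower, and 1 member was lower at an unadjusted p under 0.05. With library size alone in place of TMM factors, which moved the median of all genes by -0.51, 124 were higher and 3 lower. Of the 182 members that pass the count limit on other stages 119 were higher, and 84 members were called with the library labelled 6.5 dpp fresh replicate 1 in the fit.

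The protein-coding 1700092M07Rik, also named Tex54 (chr19:8740718-8741225), led this step by p among members whose ages did not overlap. It had 2.24, 1.47 and 2.94 CPM at 22.5 dpp and 111 CPM in both libraries of 36.5 dpp, a log2 difference of 6.14 ± 0.49 (adjusted p = 6.57e-08). 1700056E22Rik (chr1:184033032-184033998), which starts 383 bases from the phosphatase gene Dusp10, had 1.66, 0.505 and 2.18 CPM and then 68.2 and 48.2 CPM (log2 difference 5.81 ± 0.50, adjusted p = 1.54e-07). The protein-coding 1700003F12Rik (chr2:154548904-154550050), inside the span of Necab3, had 17.5, 4.01 and 25.4 CPM and then 731 and 529 CPM. In none of these genes did the 2 ages overlap.

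Known spermatid genes moved at the same steps. Of 8 markers of elongating spermatids (Prm1, Prm2, Tnp1, Tnp2, Odf1, Akap4, Smcp and Oaz3), 8 rose at 22.5 dpp and 8 rose again at 36.5 dpp, and their summed level was 1.95 to 6.8 CPM at 10.5 dpp, 37.6 to 238 at 22.5 dpp and 22501 to 28058 CPM at 36.5 dpp. Of 6 round spermatid markers, 5 and then 6 rose, with sums of 17.8 to 19.0, 200 to 395 and 1262 to 1405 CPM. The 8 spermatocyte markers rose at 22.5 dpp (sum 2331 to 2521 CPM, from 198 to 256) and 1 of 8 rose further at 36.5 dpp. At 22.5 dpp 7 of 7 spermatogonial markers, 3 of 6 of Sertoli cells, 2 of 2 of endothelium and 1 of 2 of peritubular cells fell, and at 36.5 dpp 5 of 7, 3 of 6, 1 of 2 and 2 of 2 of the same lists fell. At 22.5 dpp 1 Sertoli cell marker rose. Of 4 Leydig cell markers 1 and then 3 rose, and of 4 macrophage markers 1 rose and then 2 fell. Of 2 erythroid markers tested, 1 rose and 1 fell at 36.5 dpp. The part of these cells in the members' rise was not tested.

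**Figure D3:**
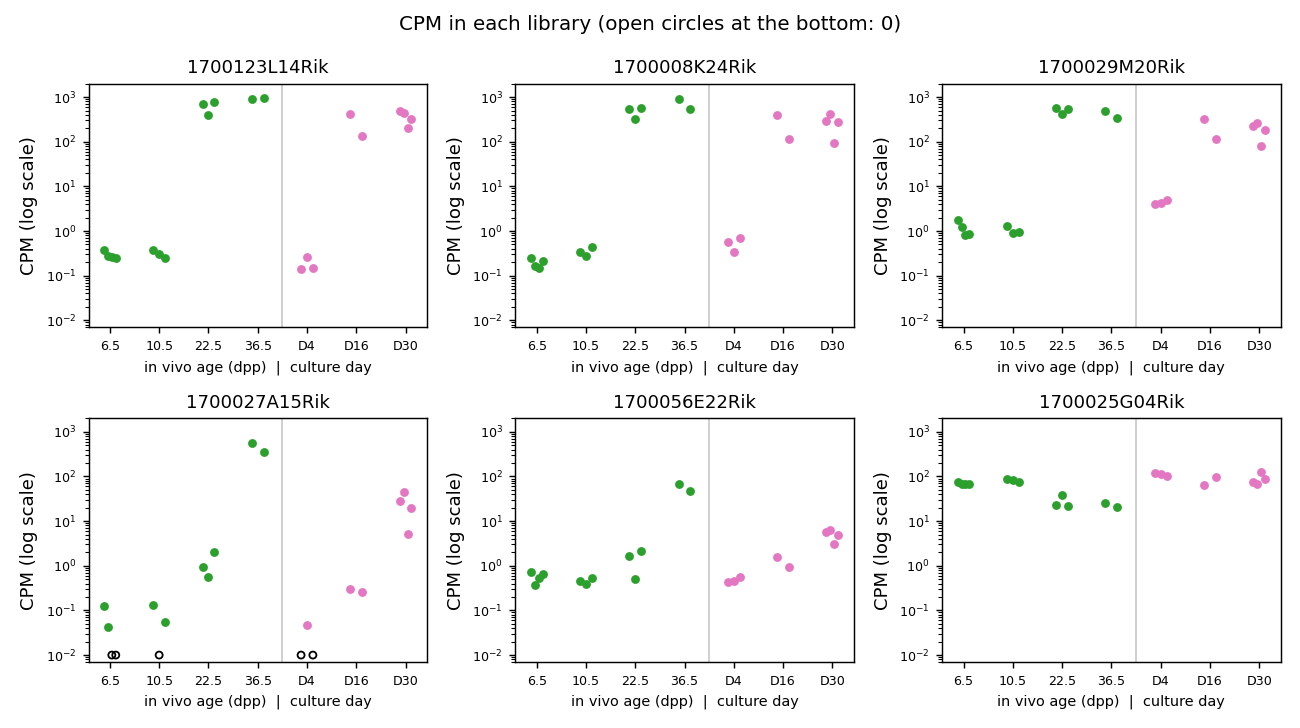
CPM (log axis) of 6 members in each library used, by age in vivo (green) and day of culture (pink), with zeros as open circles. 1700123L14Rik, 1700008K24Rik and 1700029M20Rik rise at 22.5 dpp and D16, 1700027A15Rik and 1700056E22Rik are highest at 36.5 dpp and, in culture, at D30, and 1700025G04Rik falls to 21.5 to 37.7 CPM at 22.5 dpp.

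In culture the members rose between D4 and D16. Of the 216, 168 (77.8%) were called higher and 0 lower, beside 16.6% higher and 3.21% lower of all genes tested, and the median log2 difference was 4.73 (3.78 with genes at the floor set at their bound). DESeq2 called 176 higher and 0 lower, and 178 were higher and 0 lower at an unadjusted p under 0.05. The rise covered 98 of 128 lncRNA and 61 of 79 protein-coding members. 1700123L14Rik had 0.139, 0.264 and 0.145 CPM at D4 and 415 and 137 CPM at D16 (log2 difference 10.64 ± 0.61, adjusted p = 3.88e-09), and 1700001J11Rik had 0.232, 0.12 and 0.203 CPM and then 168 and 60.9 CPM (9.30 ± 0.58, adjusted p = 5.24e-09). In both genes D4 and D16 did not overlap, which their choice required, and D16 replicate 1 was the higher library of its stage. Of the cell type markers, 5 of 8 of spermatocytes, 5 of 6 of round and 8 of 8 of elongating spermatids and 4 of 4 of macrophages rose between D4 and D16, the last from 12.1 to 17.0 to 87.3 to 91.4 CPM in sum, while 1 of 7 of spermatogonia and 1 of 6 of Sertoli cells fell. Their part in the members' rise was not tested. Without D16 replicate 1, 78 members were called, without replicate 2, 173, and with the library labelled 6.5 dpp fresh replicate 1 in the fit, 34.

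From D16 to D30 few members were called, though 183 of 216 had a log2 difference above 0, beside 9882 of 19255 genes tested. 22 (10.2%) were called higher and 0 lower, where 1.41% of all genes tested were higher and 0.254% lower, and the median log2 difference was 0.60. At an unadjusted p under 0.05, 53 were higher and 1 lower, and DESeq2 called 30 higher and 0 lower. The lncRNA 1700027A15Rik (chr1:73016036-73025508) had 0.302 and 0.262 CPM at D16 and 27.8, 44.7, 5.06 and (CSF) 19.5 CPM at D30, a log2 difference of 6.47 ± 0.97 (adjusted p = 0.00372). The protein-coding 1700015G11Rik, also named Ccdc179 (chr7:52011680-52015716), had 0.101 and 0.0656 CPM and then 11.3, 14.8, 1.86 and 5.88 CPM (6.69 ± 1.05, adjusted p = 0.00419). The stages did not overlap in either gene, as the choice of named genes required. The count rests on the D16 libraries, with 75 members called without replicate 1 and 0 without replicate 2, 0 when only D16 and D30 libraries were fitted and 8 with the library labelled 6.5 dpp fresh replicate 1. Only 7 of the 183 members that pass the count limit without D16 and D30 libraries were called, and 31 members would miss the limit without the D30 libraries. The summed elongating spermatid markers were 9.05 and 163 CPM in the D16 libraries and 540 to 2447 CPM at D30, with 4 of 8 called higher. Also higher were 2 of 4 Leydig cell, 1 of 6 round spermatid and 1 of 2 tested erythroid markers, while 1 of 6 Sertoli cell markers was lower. The part of these cells in the members' change was not tested.

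The culture steps were also read against the in vivo steps at which each member rose. 130 members rose at both in vivo steps, 58 by 22.5 dpp only, 18 by 36.5 dpp only and 10 at neither. Of the 130, 114 rose between D4 and D16 and 12 between D16 and D30, beside 1343 and 131 of the 2152 genes tested that rose at both in vivo steps. Of the 58, 54 rose by D16 and 0 afterwards, beside 1629 and 26 of 3214 genes tested of that class. Of the 18 late ones, 11 of them lncRNA and 7 protein coding, 0 rose by D16 and 10 (4 lncRNA and 6 coding) rose between D16 and D30, with a median log2 difference of 6.22, beside 51 and 91 of the 1804 genes tested that rose by 36.5 dpp only. The late members had a median level of 0.116 CPM at 22.5 dpp and 27.4 CPM at 36.5 dpp, and of 0.0415 CPM at D16 and 1.93 CPM at D30. The late class also holds 1700013H16Rik, which had fallen at 22.5 dpp. As 36.5 dpp has 2 libraries, a gene low in every other stage but D30 needs a D30 library to reach the count limit. The rise of the late members at D30 was thus partly fixed by their selection and is no independent support. No such limit was set for the 1804 genes.

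**Figure D4:**
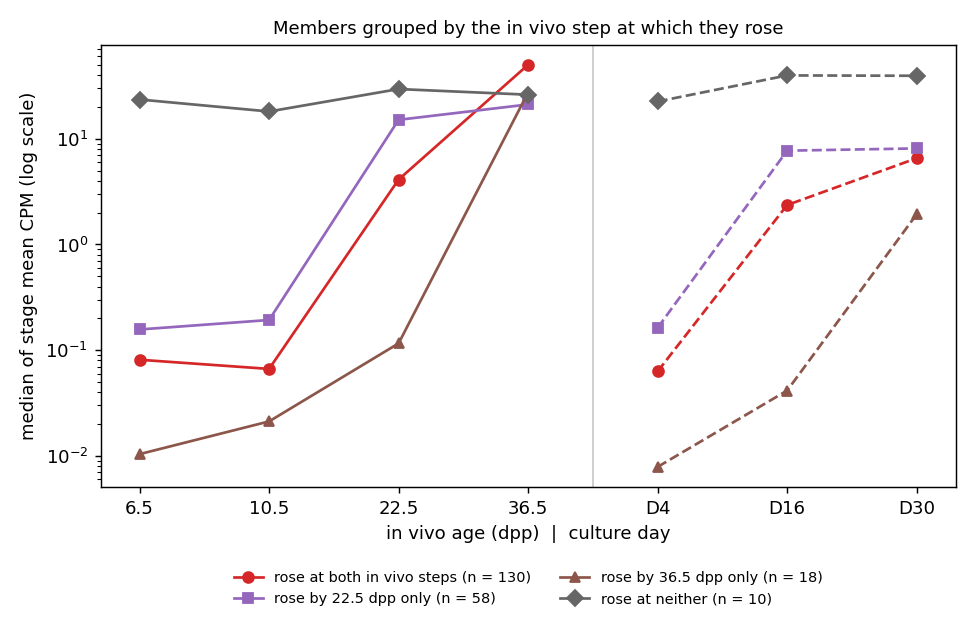
Median over genes of the stage mean CPM (log axis) for members grouped by the in vivo step at which they rose, with solid lines in vivo and dashed lines in culture. The 18 late members move from 0.116 to 27.4 CPM between 22.5 and 36.5 dpp and from 0.0415 to 1.93 CPM between D16 and D30. Members were selected on counts, and the D30 libraries helped late genes to pass.

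Against the matched ages in vivo, the median log2 difference of the members was 0.0 at D4, -1.08 at D16 and -3.03 at D30. D4 and 10.5 dpp differed in 4 members (1.85%), all higher in culture and 0 lower, where 3.45% of all genes tested were higher and 2.43% lower. At an unadjusted p under 0.05, 10 were higher and 1 lower, and DESeq2 called 5 higher and 1 lower. 1700080O16Rik, a protein-coding gene on the X chromosome (chrX:51968693-51973502), had 1.68, 1.97 and 1.80 CPM at 10.5 dpp and 8.96, 6.26 and 6.95 CPM at D4 (log2 difference 2.11 ± 0.38, adjusted p = 0.00163). The lncRNA 1700029M20Rik (chr4:135626655-135630198) had 1.30, 0.918 and 0.928 CPM and 4.09, 4.2 and 4.91 CPM (2.15 ± 0.44, adjusted p = 0.00389). The others, listed after their values were seen because the count is small, were the lncRNA 1700020N01Rik (1.26 ± 0.288 CPM at 10.5 dpp and 5.65 ± 0.211 at D4, SD, n = 3 each) and the protein-coding 1700102P08Rik (1.15 ± 0.151 and 5.00 ± 0.0337 CPM), which overlaps Iho1, a gene of meiotic double-strand break formation. Groups of these 4 genes did not overlap, which the choice of 1700080O16Rik and 1700029M20Rik required. With the library labelled 6.5 dpp fresh replicate 1 in the fit 0 were called, and with only D4 and 10.5 dpp libraries 10. Of the cell type markers, 2 of 8 of spermatocytes were higher at D4 (sums 336 to 419 against 198 to 256 CPM). Lower at D4 were 3 of 4 Leydig cell markers (sums 123 to 194 against 626 to 713 CPM), 3 of 4 macrophage and 1 of 2 tested erythroid markers. The part of all these cells in the difference of the 4 genes was not tested.

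At D16, 28 members (13.0%) were lower and 1 higher than at 22.5 dpp, beside 8.24% lower and 8.83% higher of all genes tested, and the median log2 difference was -1.08 against -0.08. The protein-coding 1700010B08Rik (chr2:173719415-173722086) had 227, 107 and 213 CPM at 22.5 dpp and 58.4 and 18.4 CPM at D16 (log2 difference -2.42 ± 0.47, adjusted p = 0.00175). The lncRNA 1700028E10Rik (chr5:151368675-151414083), which overlaps Stard13, had 15.1, 12.0 and 14.6 CPM and 8.15 and 6.58 CPM (-1.08 ± 0.26, adjusted p = 0.00753), and was not called with library size alone, with only these groups fitted, or without D16 replicate 2 or 22.5 dpp replicate 1 (adjusted p 0.0143 to 0.133 with log2 differences of -0.91 to -1.01). 1700025G04Rik was the member that was higher, with 66.0 and 95.5 CPM at D16 (1.43 ± 0.22, adjusted p = 0.000298). In the same comparison 2 of 8 spermatocyte and 4 of 4 Leydig cell markers were lower at D16 (Leydig sums 99.9 to 131 against 595 to 750 CPM), 2 of 2 endothelial markers were higher, 4 of 6 Sertoli cell markers were higher and 1 lower (sums 5016 to 7002 against 1602 to 2786 CPM), and none of the round or elongating spermatid markers was called, at medians of -1.01 and -1.30. Of 2 erythroid markers tested, 1 was lower at D16. Of 7 spermatogonial markers 1 was higher at D16, with sums of 510 to 699 against 286 to 496 CPM. What these cells contributed to the members' difference was not tested. The number called was 138 without D16 replicate 1, 2 without D16 replicate 2, 58 without 22.5 dpp replicate 2, and 3 and 5 without 22.5 dpp replicates 1 and 3. It was 3 with the library labelled 6.5 dpp fresh replicate 1, 18 with library size alone and 1 with only the groups compared.

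At D30, 196 members (90.7%) were lower and 2 higher than at 36.5 dpp, beside 29.8% lower and 25.2% higher of all genes tested. The median log2 difference was -3.03, against -0.03 for all genes tested. Of the lncRNA 115 of 128 were lower (median -2.86), and of the coding genes 72 of 79 (median -3.26). The 36.5 dpp libraries also enter the step from 22.5 dpp, and 24 members would miss the count limit without them. Of the 168 members that pass on other stages 148 were lower. The members that rose at both in vivo steps had a median of -3.65 with 130 of 130 lower, and of all genes tested of that class 2116 of 2152 were lower, with a median of -3.32. Those that rose by 22.5 dpp only had a median of -1.74 with 49 of 58 lower, beside -1.10 and 1633 of 3214. These classes were defined with the same 36.5 dpp libraries. 1700029I15Rik, a protein-coding gene at chr2:92382918-92383603, had 57.4 and 35.7 CPM at 36.5 dpp and 4.68, 4.16, 2.42 and (CSF) 4.47 CPM at D30 (log2 difference -4.19 ± 0.35, adjusted p = 6.79e-08). 1700092M07Rik (Tex54) had 9.34, 8.49, 3.40 and 3.49 CPM at D30 against 111 CPM (-4.78 ± 0.41, adjusted p = 8.59e-08). With library size alone, which moved the median of all genes by 0.64, 171 members were lower and 3 higher, and 124 members were called with the library labelled 6.5 dpp fresh replicate 1.

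The members higher at D30 were 1700025G04Rik, with 75.3, 68.0, 123 and (CSF) 89.9 CPM against 26.0 and 20.8 CPM at 36.5 dpp (log2 difference 1.28 ± 0.23, adjusted p = 0.000111), and the lncRNA 1700086O06Rik, with 2.34, 2.53, 3.38 and 3.62 CPM against 0.802 and 1.00 CPM (1.07 ± 0.31, adjusted p = 0.00593). The latter fell short of 2-fold with RLE size factors and in DESeq2 (0.81 in both), with fresh libraries only (0.98), without the CSF library (0.97) and without 36.5 dpp replicate 1 (0.89, adjusted p = 0.0726). Of the markers, all 8 of elongating and all 6 of round spermatids were lower at D30 than at 36.5 dpp, with summed levels of 540 to 2447 and 128 to 368 CPM, while 3 of 8 spermatocyte markers were lower (564 to 1736 CPM at D30). Of 4 Leydig cell markers 3 were lower, at 190 to 329 against 1374 to 1671 CPM. Markers of other cells were higher at D30, with 5 of 6 of Sertoli cells (5388 to 9145 against 675 to 890 CPM), 5 of 7 of spermatogonia, 2 of 2 of peritubular cells, 2 of 2 of endothelium and 2 of 4 of macrophages. Of 2 erythroid markers tested, 1 was lower at D30. The contribution of these cells to the members' difference was not tested.

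The difference between the culture and the in vivo step was tested by itself, on the same libraries as the comparisons above. For the meiotic step (D16 against D4, minus 22.5 against 10.5 dpp), 11 members (5.09%) rose less in culture and 0 rose more, beside 4.09% lower and 4.74% higher of all genes tested. At an unadjusted p under 0.05 there were 29 lower and 1 higher, and DESeq2 called 19 lower and 0 higher. 1700029M20Rik had a difference of -3.51 ± 0.64 on the log2 scale (adjusted p = 0.00314), with 325 and 118 CPM at D16 and 573, 408 and 539 CPM at 22.5 dpp, from a higher start at D4. 1700080O16Rik had 10.0 and 4.44 CPM at D16 beside 11.2, 6.52 and 12.0 CPM at 22.5 dpp, and a difference of -2.73 ± 0.57 (adjusted p = 0.00721), again with a higher start at D4. For the spermatid step (D30 against D16, minus 36.5 against 22.5 dpp), 44 members (20.4%) rose less and 0 rose more, beside 8.26% lower and 9.11% higher. At an unadjusted p under 0.05, 94 were lower and 0 higher, and DESeq2 called 48 lower and 0 higher. 1700056E22Rik (-3.77 ± 0.62, adjusted p = 0.000622) and 1700029I15Rik (-3.04 ± 0.51, adjusted p = 0.000664) led, and 1700056E22Rik went from 1.56 and 0.918 CPM at D16 to 3.15 to 6.23 CPM at D30. Leaving out 1 library moved the first count between 1 and 45 and the second between 5 and 101, both extremes being set by the D16 libraries, and other libraries that moved them by over 1.5 times are named with the processing. With the library labelled 6.5 dpp fresh replicate 1 the counts were 0 and 11.

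**Figure D5:**
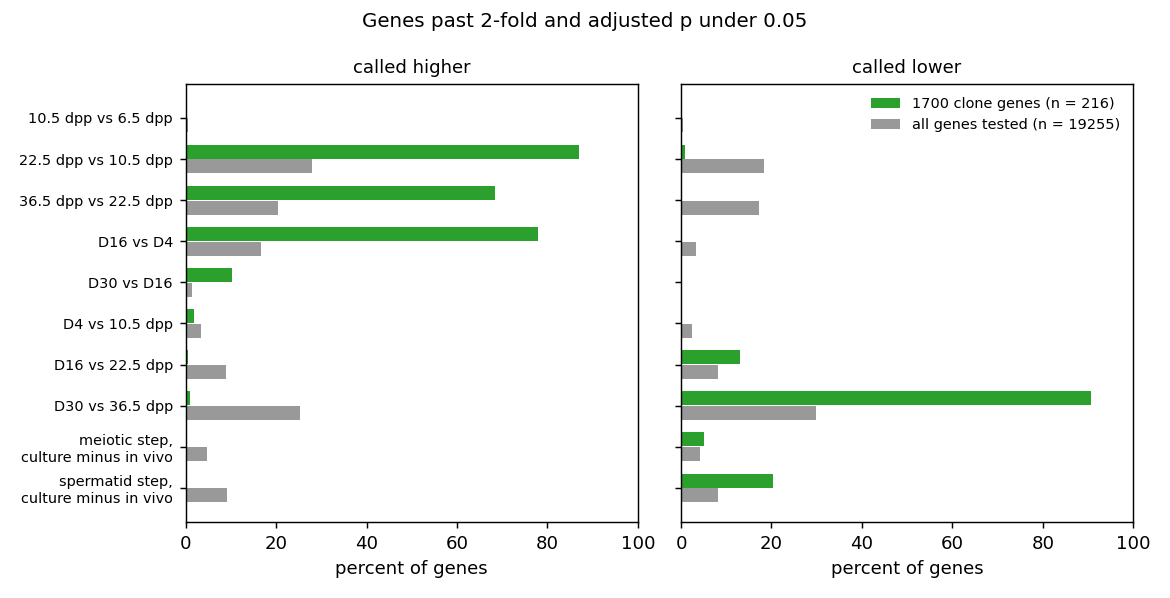
Percent of genes called higher or lower in each comparison, for the 216 clone genes and for the 19255 genes tested, on axes from 0 to 100%. The members stand at 87.0% against 27.9% higher at 22.5 dpp and at 90.7% against 29.8% lower at D30, the comparisons share libraries, and the members were selected on their counts.

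A minority of the 1700 clone genes was called higher at neither the 22.5 nor the 36.5 dpp step. The 10 members that rose at neither in vivo step had median levels of 23.5 CPM at 6.5 dpp, 18.1 at 10.5 dpp, 29.5 at 22.5 dpp and 26.1 at 36.5 dpp. The protein-coding 1700123O20Rik (chr14:54686171-54690742), which overlaps the splicing regulator gene Acin1, had 44.3 CPM in the fresh and 43.3, 69.3 and 161 CPM in the CSF libraries of 6.5 dpp, 44.1, 51.7 and 48.6 CPM at 10.5 dpp, 36.1, 33.4 and 33.9 CPM at 22.5 dpp, and 38.6 and 18.9 CPM at 36.5 dpp. The protein-coding 1700094D03Rik (chr3:90062808-90068347) had 19.8, 18.9, 26.3 and 54.4 CPM at 6.5 dpp and 16.8 to 29.1 CPM in the later in vivo libraries. In both, the CSF replicate 3 of 6.5 dpp was the highest library of all. 1700086O06Rik had 2.53, 2.06, 3.43 and 3.14 CPM at 6.5 dpp and 0.802 to 2.92 CPM later in vivo. None of these 3 was called between 6.5 and 10.5, 10.5 and 22.5, or 22.5 and 36.5 dpp. 1700011M02Rik, an X-linked lncRNA at chrX:102908905-102909651 inside the span of Dmrtc1a, varied widely within stages, with 9.02, 2.99, 3.45 and 52.9 CPM at 6.5 dpp, 74.0 and 7.95 CPM at 36.5 dpp, 106 and 28.7 CPM at D16, and 51.4, 172, 44.2 and (CSF) 281 CPM at D30, and it passed no test.

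Other clone families gave a measure of what a RIKEN name brings with it. The 294 genes of the other large RIKEN series of testis clones past the same count limit were higher at 22.5 than at 10.5 dpp in 89.1%, higher at 36.5 than at 22.5 dpp in 62.6%, and lower at D30 than at 36.5 dpp in 84.7% of cases, near the members' 87.0%, 68.5% and 90.7%. In the 343 remaining RIKEN clone genes the same shares were 32.4%, 17.2% and 23.9%. Of the 800 lncRNA past the limit that are no members, 60.5%, 34.6% and 50.5% were called in these directions. These shares are descriptions and their differences were not tested. By rank correlation of the 7 stage means with the median profile of the members, 70 members had a coefficient of at least 0.9 (46 lncRNA and 21 coding), 6 were below 0, and the median was 0.857, which describes points that share libraries. The members lay on every autosome and, with 8 genes (3.70%), on the X chromosome, which holds 4.15% of genes tested, and none lay on the Y chromosome.

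At the count limit, the members just inside were 1700020N15Rik (chrX:69945281-69945980) and the lncRNA 1700128A07Rik (chr14:106417187-106486520), in which the library of rank 3 held 50 counts. Their 36.5 dpp levels were 9.59 and 6.48 CPM and 10.3 and 7.59 CPM. The rows just outside were 1700025C18Rik, with 49 counts at that rank and 12.8 and 8.54 CPM at 36.5 dpp, and 1700063H06Rik, with 45 counts and 14.6 and 8.64 CPM. A limit of 10 counts gave 285 genes and a limit of 200 counts 143. As 36.5 dpp is held by 2 libraries, a gene confined to that age could not pass, and each member reached 50 counts in at least 1 library of another stage.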

How the data were processed

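Whole testes and cultured explants were sequenced as polyadenylated RNA with a stranded kit and single reads of 50 bases. Per the labels and the study's methods, the authors aligned reads with STAR 2.7.3a to GRCm38 and counted them with HTSeq 0.12.4, and deposited raw counts per gene and library. The strand setting and the annotation release are not given in the sources used here. Of 23 columns, 21 were used, with 28351546 to 69029328 counts each; 0.0202% of counts lay in genes absent from the RefSeq table of GRCm38.p6 that gave symbols and biotypes. CPM was computed on library totals. edgeR 4.0.16 (R 4.3.3) fitted 1 quasi-likelihood model over 7 stages with TMM factors and filterByExpr, with Benjamini-Hochberg adjustment over 19255 genes, and DESeq2 1.42.0 was the other test. The code was tested on simulated data. The members and lists were chosen with earlier results of these data known. Named genes were the leading called members whose groups did not overlap, per comparison and direction, the leading members of each difference of steps, the highest per kb of exon (GENCODE M21), those next to the count limit, and the highest at 6.5 dpp among members with no higher later in vivo stage; others are said to be chosen afterwards. Counting error only is covered by any floor (3 counts).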

Additional observations from a re-analysis of the deposited data

Results flagged for a closer look

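Among 48 sets of 4 libraries of 6.5 dpp or D30 screened for a library far from the others, 8 stood out. Chance flags about 1 in 20 independent sets, but these sets share libraries, and the sums of all members, of lncRNA and of coding members overlap. The CSF replicate 3 of 6.5 dpp was that library in 7 of them. Its summed level of the members was 908 CPM against 630 to 658 in the other 3 libraries, with 279 against 110 to 122 CPM for lncRNA and 629 against 520 to 536 CPM for protein-coding members. In it 1700013H16Rik had 58.2 CPM (18.4 to 23.2 elsewhere), 1700080O16Rik 3.32 (1.38 to 1.68), 1700011M02Rik 52.9 (2.99 to 9.02) and 1700003F12Rik 3.56 (1.36 to 1.66). The remaining case was 1700025G04Rik, with 76.8 CPM in the fresh library of 6.5 dpp against 67.5 to 68.0 in the CSF libraries.

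Steps that differed between culture and in vivo by their own test were those of 11 members (5.09%, beside 4.09% of all genes tested in the same direction) for the meiotic step, among them 1700029M20Rik (-3.51 on the log2 scale, edgeR adjusted p = 0.00314) and 1700080O16Rik (-2.73, adjusted p = 0.00721), and of 44 members (20.4%, beside 8.26%) for the spermatid step, among them 1700056E22Rik (-3.77, adjusted p = 0.000622) and 1700029I15Rik (-3.04, adjusted p = 0.000664). The library labelled 6.5 dpp fresh replicate 1, which entered the fits only as an alternative, had a summed level of 4716 CPM. The other libraries of that age stood at 630 to 908 CPM.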

How the results depend on the processing

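No direction reversed for any count or named gene under the alternatives run. At a log2 fold of 2 and an adjusted p of 0.001, the members called were 76 for 36.5 against 22.5 dpp, 91 for D16 against D4, 127 for D30 against 36.5 dpp, 3 for the spermatid step, and 0 for D30 against D16, D4 against 10.5 dpp, D16 against 22.5 dpp and the meiotic step. With the library labelled 6.5 dpp fresh replicate 1 in the fit they were, in the order of the comparisons from 36.5 against 22.5 dpp on, 84, 34, 8, 0, 3, 124, 0 and 11. With only the groups compared they were 0 for D30 against D16, 10 for D4 against 10.5 dpp, 1 for D16 against 22.5 dpp and 15 for the spermatid step. Library size alone gave 1 for 10.5 against 6.5 dpp and 18 for D16 against 22.5 dpp. DESeq2 gave 1 for 10.5 against 6.5 dpp and 19 for the meiotic step, and fresh libraries only gave 28 for the spermatid step. Counting only members that pass the limit outside the groups compared, an alternative chosen after seeing the data, gave 7 of 183 for D30 against D16 and 12 of 49 for the spermatid step, the second about the share of 44 of 216. A limit of 200 counts left 143 members. A stricter limit and fewer members can only lower a count, and the cause of the other changes was not tested.

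Leaving out 1 library at a time gave 78 to 173 members for D16 against D4, 0 to 75 for D30 against D16, 2 to 138 for D16 against 22.5 dpp, 1 to 45 for the meiotic step and 5 to 101 for the spermatid step, each range set by the D16 libraries. For the meiotic step 22.5 dpp replicate 2 (23 without it), replicates 1 and 3 (4 each), the D4 replicates (3, 6 and 6) and the 10.5 dpp replicates (5, 6 and 5) also moved the count by over 1.5 times. For the spermatid step 22.5 dpp replicate 2 (16), 36.5 dpp replicate 1 (16), D30 replicate 3 (24) and the D30 CSF library (25) did. The replicate block left 21 members for the spermatid step and changed no other count of members by over 1.5 times. Same-numbered libraries did not deviate together throughout, with correlations from -0.5222 to 0.6607 between stages. Both pairs of 22.5 dpp and D16 lay at 0.5247 and 0.6607, but 2 pairs with no label on what a number marks do not settle a pairing, and the numbers were not used to pair libraries. Groups of 2 to 4 libraries limit every call, and 83 members at the floor at 10.5 dpp and 95 at D4 have folds known only as bounds.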

Other observations

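4 members were high together in single libraries, a pattern seen in the data and not tested. At 6.5 dpp, CSF replicate 3 held 161 CPM of 1700123O20Rik, 54.4 of 1700094D03Rik, 58.2 of 1700013H16Rik and 40.6 of the X-linked lncRNA 1700018G05Rik, while the other 3 libraries held 43.3 to 69.3, 18.9 to 26.3, 18.4 to 23.2 and 3.80 to 14.4 CPM. At D30 the CSF library held 77.9, 35.5, 35.5 and 172 CPM of the same genes, against 36.4 to 61.1, 18.5 to 27.5, 14.3 to 28.7 and 70.2 to 90.4 CPM in the 3 fresh libraries. At 36.5 dpp replicate 1 was above replicate 2 for each of them, with 38.6 and 18.9, 29.1 and 17.8, 33.6 and 15.7, and 42.2 and 16.3 CPM. The protein-coding 1700017B05Rik, the highest member at 6.5 dpp, went the other way, with 86.1 CPM in CSF replicate 3 of 6.5 dpp against 187 to 224, 153 in the D30 CSF library against 162 to 227, and 146 and 208 CPM at 36.5 dpp. These genes were chosen after their values were seen.

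The neighbouring lncRNAs 1700011M02Rik and 1700018G05Rik, which start at bases 102908905 and 102928372 of the X chromosome, had their highest stage mean at D30, at 137 ± 112 and 101 ± 48.0 CPM (SD, n = 4) against 41.0 ± 46.7 and 29.2 ± 18.3 CPM (n = 2) at 36.5 dpp. The differences did not pass edgeR's test (log2 1.12 ± 1.07, adjusted p = 0.364, and 1.16 ± 0.69, adjusted p = 0.145).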
